A study of Homo sapiens with 28 samples.

Results

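The active histone mark H3K27ac was compared between 2 peak lists with TC in their file names and 2 with TAZ4SA in their file names. TC stands in the study for TAZ-CAMTA1, the fusion protein of epithelioid hemangioendothelioma, and TAZ4SA is a form of TAZ that escapes inhibition by the Hippo kinases. The GEO titles give other constructs for the same lists. The TC-named lists are titled CAMTA1, replicates 1 and 2, and the TAZ4SA-named lists are titled TAZ_CAMTA1, replicates 1 and 2. File name and title named different constructs in 14 of the 14 lists of the series, so it is not known which construct a value below belongs to. Lists are called by the construct in the file name and by the replicate number of the title. The comparison used 4 of the 14 lists, and the other 10 were kept as libraries that played no part in choosing regions.

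All libraries came from SW872, an established human liposarcoma line, stably transduced with one construct each. According to the labels the cells were near confluence before they were collected, apart from the CAMTA1 cells, which were sub-confluent. The study's ChIP methods instead describe near confluence for every construct, CAMTA1 included. If the label holds, the TC-named lists, titled CAMTA1, are the sub-confluent ones by title and not by file name. The methods describe duplicates as biological. No gene names, promoters or DNA sequences are given because the lists are on GRCh37 and coordinates were not converted.

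H3K27ac marks nucleosomes at active promoters and enhancers. TAZ is a transcriptional coactivator that binds DNA through TEAD factors, mostly at distal enhancers, and Hippo signalling keeps it in the cytoplasm, above all in dense cultures. TAZ4SA lacks the serines through which this inhibition acts. In TAZ-CAMTA1 the TEAD-binding end of TAZ is joined to most of CAMTA1, a transcription factor otherwise expressed mainly in the nervous system, and the fusion stays in the nucleus.

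The lists differed in length and in depth. TC-named replicates 1 and 2 held 47974 and 31280 peaks, and TAZ4SA-named replicates 1 and 2 held 21748 and 48372. The 21748 peaks with the highest −log10 p were used from each list, which is the whole of TAZ4SA-named replicate 1. Even so, the lists did not become alike. The peaks used covered 50.7, 27.6, 24.1 and 56.8 Mb in this order, and their median fold enrichment at the summit was 6.60, 5.63, 4.53 and 8.67. The −log10 p of the last peak used was lowest in TAZ4SA-named replicate 1, at 3.45, and highest in TAZ4SA-named replicate 2, at 9.41. On each side one list was thus wider and stronger than its partner. A read total was not used here, and the background coverage recovered from fold and p, a relative measure of depth, was 2.49, 1.46, 1.92 and 1.71 fragments.

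Merging the peaks of the 4 lists gave 29616 regions, of which 10659 (36.0%) had a peak in every list. A further 1439 regions had a peak in both TC-named lists and in neither TAZ4SA-named list (4.86% of merged regions) and are called TC-only. The reverse held for 1927 regions (6.51%), called TAZ4SA-only. These counts follow from the rule and were not tested, since 2 lists against 2 cannot give an exact two-sided p below 0.333. A single list held 9547 regions, more than both one-sided classes together. Of these, 2770 were in TC-named replicate 1, 1760 in TC-named replicate 2, 2092 in TAZ4SA-named replicate 1 and 2925 in TAZ4SA-named replicate 2. Regions that cut across the sides, with one list from each, numbered 1866, of which 1144 joined TC-named replicate 1 with TAZ4SA-named replicate 2. These are the wider lists of their sides.

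**Figure D1:**
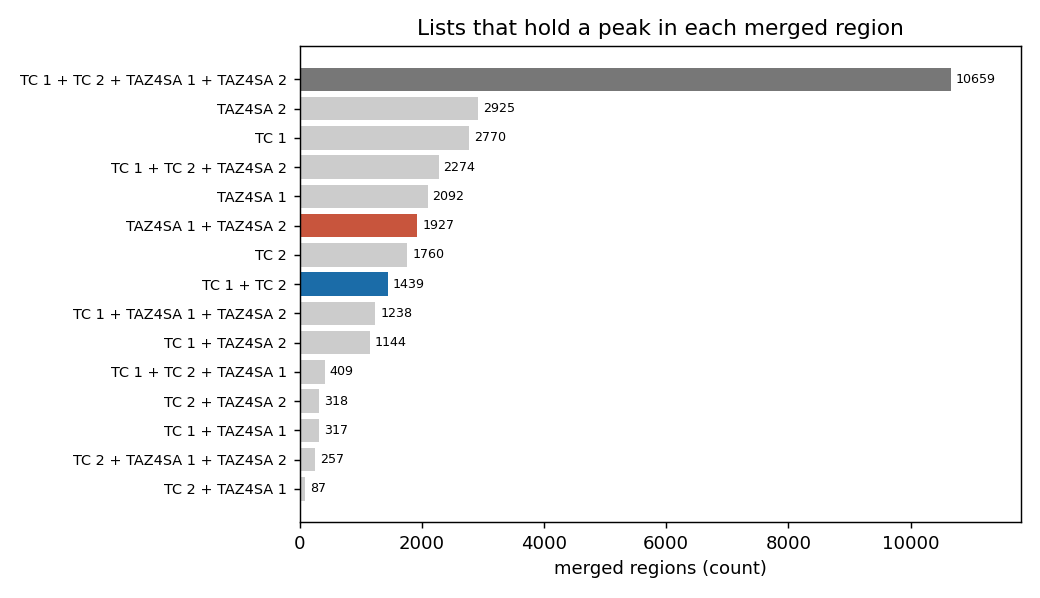
Bars give the number of merged regions (x axis, count) for each of the 15 combinations of lists holding a peak (y axis). The 10659 regions in all 4 lists are dark grey, the 1439 TC-only regions blue and the 1927 TAZ4SA-only regions red, and both one-sided classes are shorter than the bars for TAZ4SA-named replicate 2 alone (2925) and TC-named replicate 1 alone (2770).

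Which side held more regions depended on the processing. TAZ4SA-only regions outnumbered TC-only regions with the 21748 best peaks and with the 10000 best (1025 against 831). The order turned when all peaks were used, to 1501 against 1806, and when peaks had to cover 50% of a region, to 1028 against 1226. Leaving out a list, so that a side was represented by its other list alone, moved the counts further. They became 3895 TC-only and 3269 TAZ4SA-only without TC-named replicate 1, and 4268 and 2187 without TC-named replicate 2. Without TAZ4SA-named replicate 1 they were 1852 and 4936, and without TAZ4SA-named replicate 2 they were 3916 and 5148. With the constructs of the GEO titles instead, the lists titled TAZ_CAMTA1 had 1467 regions and the lists titled TAZ4SA 3278.

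One-sided regions were mostly of middle to low rank, and the TAZ4SA-only class reached higher. TC-only regions had a median rank of 14744 and 14743 in TC-named replicates 1 and 2, and their best ranks were 2943 and 3076. Only 8 and 16 of the 1439 fell among the 5000 best peaks. TAZ4SA-only regions had a median rank of 12422 and 13716 in TAZ4SA-named replicates 1 and 2, and their best ranks were 340 and 5. Here 188 and 92 of the 1927 were among the 5000 best. For comparison, regions in all 4 lists had medians from 5673 to 6470. The median fold of TC-only regions was 5.45 and 4.88, and that of TAZ4SA-only regions was 4.32 and 7.44. Ranks have the same scale in every list and folds do not, so these medians do not measure agreement between lists. The ranks describe members that the same lists chose and carry no test.

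Absence from the 21748 best peaks was not always absence from the list. A weaker peak of TAZ4SA-named replicate 2 lay in 997 of the 1439 TC-only regions (69.3%), and none could lie in replicate 1, whose list had been used whole. Of the TAZ4SA-only regions, 966 of 1927 (50.1%) held a weaker peak of TC-named replicate 1 and 242 (12.6%) one of TC-named replicate 2. That left 442 TC-only regions (1.49% of merged regions) and 920 TAZ4SA-only regions (3.11%) with no peak of any strength on the other side. A missing peak does not show that acetylation was absent, and a weak site can fall below what a shallower or less enriched list detects.

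The 10 best ranked regions of each class were named by the rank in their weaker list. The first TAZ4SA-only region, chr5:165778981-165787775, spanned 8795 bp and ranked 340 in TAZ4SA-named replicate 1 and 5 in replicate 2. The summit fold was 6.18 and 19.3, over 124 and 250 fragments. Neither full TC-named list had a peak there. Both CAMTA1-named and both YAP5SA-named lists had one among their best peaks, and the EV-named and TFE3-named best lists had none.

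Regions 2, 3 and 5 of the TAZ4SA-only class lay close together on chromosome 20. At chr20:8991491-8996241 the ranks were 432 and 137 and the folds 13.1 and 26.2. The neighbouring chr20:8996649-9004256 ranked 1209 and 222, with folds of 7.71 and 24.9. At chr20:8832746-8837264 the ranks were 1007 and 1332 and the folds 8.11 and 17.2. TC-named replicate 1 held only weak peaks in these 3 regions, at ranks 33786, 25434 and 34139 and folds of 3.21, 3.56 and 3.01, and TC-named replicate 2 held none. The sides were thus far apart at this locus, although both CAMTA1-named lists and both TFE3-named lists also had peaks in all 3.

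A second pair of adjacent TAZ4SA-only regions lay on chromosome 7. At chr7:32153100-32155536 the ranks were 1332 and 1041 and the folds 7.99 and 19.9. At chr7:32155830-32160564 the ranks were 661 and 2059 and the folds 9.96 and 16.7. No TC-named list had a peak of any strength in either. The other 4 named regions were chr5:35916426-35922041, chr6:152809410-152819308, chr11:114236099-114239845 and chr2:217233557-217241566, with weaker ranks from 1263 to 2052. Of the 10, all had a peak in both YAP5SA-named lists, 8 in both CAMTA1-named lists, 3 in both TFE3-named lists and 1 in both EV-named lists. Over the whole class the shares were 68.3%, 22.1%, 7.21% and 23.5%.

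The best TC-only regions ranked lower. The first, chr5:58499996-58505633, ranked 2943 in TC-named replicate 1 and 4523 in replicate 2, with folds of 10.1 and 7.78 over 66 and 28 fragments. The full list of TAZ4SA-named replicate 2 had a peak there at rank 41716 and a fold of 2.72. At chr11:44882899-44885446 the ranks were 5325 and 3076 and the folds 8.12 and 9.93, and at chr20:51588623-51593282 they were 4204 and 5489 with folds of 10.3 and 7.38. Neither TAZ4SA-named list had any peak in these regions. The region chr2:234606739-234608981, with ranks of 3287 and 5519 and folds of 12.7 and 8.09, was also without a peak on the other side. Weaker ranks of the 10 ran from 4523 to 6301, against 340 to 2059 for the 10 TAZ4SA-only regions.

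All 10 TC-only regions also had peaks outside the TC-named lists. Each had a peak in both CAMTA1-named and in both TFE3-named lists, 8 in both EV-named lists and 7 in both YAP5SA-named lists. Over all TC-only regions the shares were 42.3% for CAMTA1-named, 53.8% for TFE3-named, 73.7% for EV-named and 17.7% for YAP5SA-named lists. The 10 thus stood well apart from their class in the CAMTA1-named, TFE3-named and YAP5SA-named lists, and near it in the EV-named lists. At chr5:58499996-58505633 and at chr5:75916718-75919400 each of the 10 other lists had a peak. The TAZ4SA-named pair was alone in lacking a peak among its best at these sites.

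**Figure D2:**
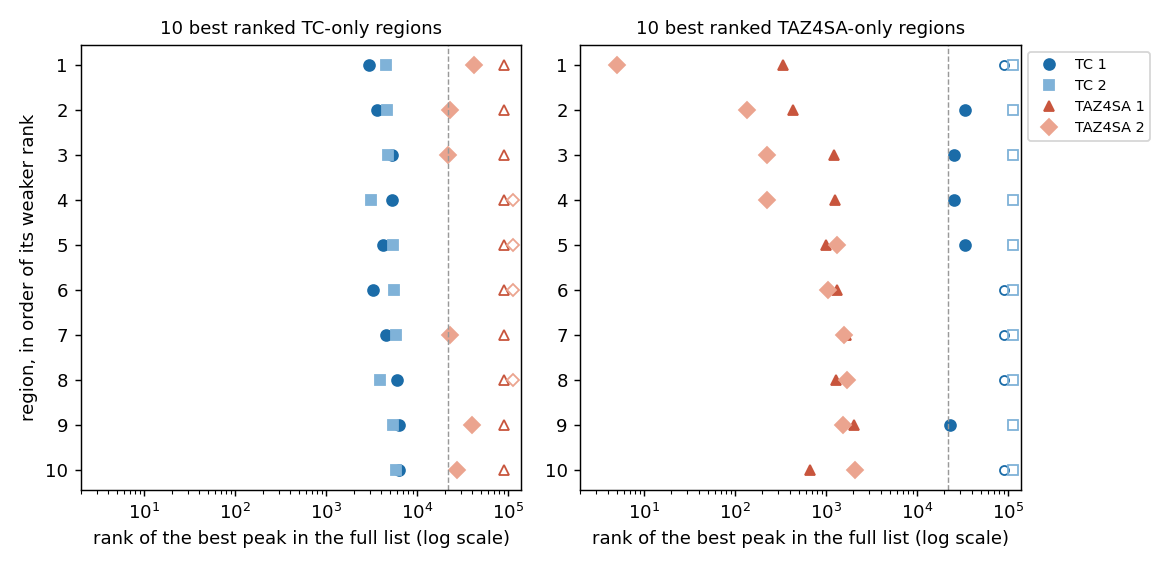
Each row is one of the 10 best ranked TC-only regions (left) or TAZ4SA-only regions (right), and the x axis gives the rank of its best peak in each full list on a log scale. Open symbols at the right edge mark lists with no peak there and the dashed line is rank 21748. TC-only regions sit between ranks 2943 and 6301 on their own side, while TAZ4SA-only regions reach ranks of 340 and 5.

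The 10 other lists, which had no part in the choice, separated both classes. TAZ4SA-only regions had a peak among the best 21748 of YAP5SA-named replicates 1 and 2 (titled YAP_TFE3) in 82.5% and 73.6% of cases. YAP5SA is the form of YAP, the paralog of TAZ, that likewise escapes Hippo inhibition. By the titles, the same lists are YAP_TFE3 and the TAZ4SA-named lists TAZ_CAMTA1, both fusion proteins. The share was 29.6% and 40.5% in the CAMTA1-named lists (titled empty vector) and 29.9% and 33.9% in the EV-named lists (titled TAZ4SA), where EV is the empty vector. It was 13.4% and 19.3% in the TFE3-named lists (titled YAP5SA). The YT-named lists (YAP-TFE3, titled TFE3) gave 0.259% and 20.7%. YT-named replicate 1 held only 5721 peaks in all, and its low shares go with that length. Both YAP5SA-named lists stood above the other 8.

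For TC-only regions the YAP5SA-named lists were at the other end. The shares were 85.3% and 77.3% in the EV-named lists, 71.7% and 62.9% in the TFE3-named lists and 58.0% and 58.0% in the CAMTA1-named lists. YT-named replicate 2 had 65.7% and replicate 1, the short list, 5.98%. The YAP5SA-named lists had 31.6% and 31.1%, below all other lists except the short one. In both classes' shares the widest 95% Wilson interval was ±2.55 percentage points for TC-only and ±2.19 for TAZ4SA-only regions. Intervals cover counting error only and take neighbouring regions as independent. Of regions in all 4 lists, between 95.8% and 98.6% had a peak in each of the 9 longer lists, and 39.0% in YT-named replicate 1. Over all merged regions the shares ran from 57.6% to 74.0% in the 9 longer lists. In the YAP5SA-named lists it was 65.3% and 60.6%, so that TAZ4SA-only regions lay above all merged regions there and TC-only regions below. In the EV-named lists it was 74.0% and 71.0%, with TC-only regions above and TAZ4SA-only regions below. In the CAMTA1-named lists it was 60.2% and 63.2%, with both classes below. In the TFE3-named lists it was 59.6% and 57.6% and in YT-named replicate 2 61.2%, with TC-only regions above and TAZ4SA-only regions below.

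**Figure D3:**
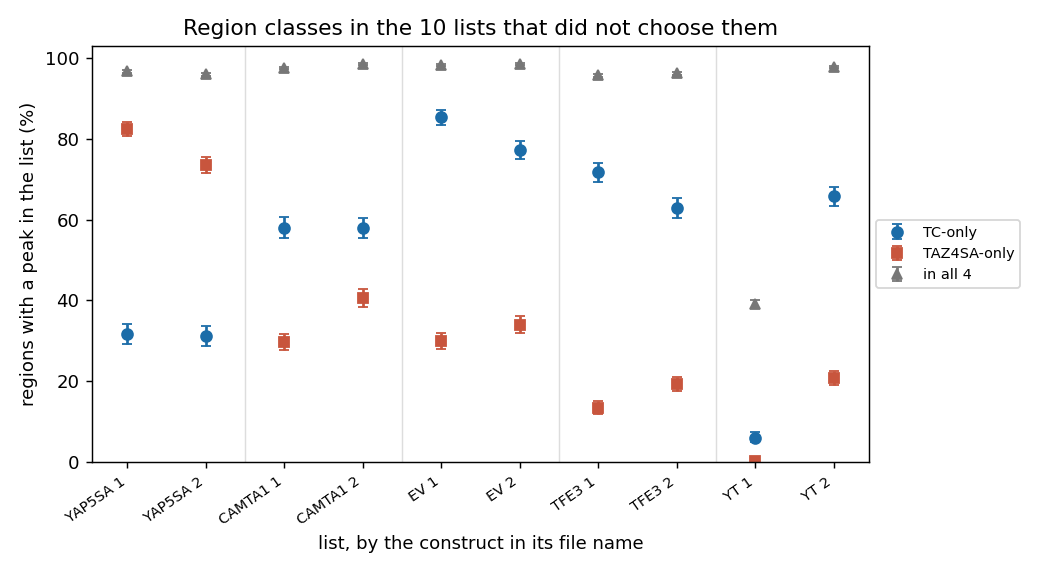
Points give the share of TC-only (blue circles), TAZ4SA-only (red squares) and all-4 (grey triangles) regions with a peak in each of the 10 other lists (y axis, percent), named by the construct in the file name, and bars are 95% Wilson intervals. TAZ4SA-only regions lie at 82.5% and 73.6% in the YAP5SA-named lists and at 40.5% or less in the rest, and TC-only regions lie at 31.6% and 31.1% in the YAP5SA-named lists.

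Lists were also combined. Both YAP5SA-named and neither EV-named list had a peak in 827 of the 1927 TAZ4SA-only regions (42.9%) and in 29 of the 1439 TC-only regions (2.02%). The opposite pattern, both EV-named and neither YAP5SA-named, held for 89 TAZ4SA-only (4.62%) and 566 TC-only regions (39.3%). Over all merged regions these patterns were found in 7.14% and 13.1%, and over regions in all 4 lists in 0.572% and 0.994%. Of the 827 TAZ4SA-only regions, 414 (21.5% of the class) were in both YAP5SA-named lists and in none of the remaining 8. That pattern held for 6 of the 29 TC-only regions (0.417% of the class) and for 3.35% of all merged regions. Regions found in none of the 10 lists were few, at 22 TC-only (1.53%) and 90 TAZ4SA-only (4.67%), against 8.11% of all merged regions. When all peaks of the 10 lists were read, 0 TC-only and 3 TAZ4SA-only regions were left, against 1.66% of all merged regions. All merged regions include those of a single list, which neither class can hold. Hardly any region of either class was thus private to its pair of lists, and few merged regions lay outside the 10 full lists.

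Shares in several other lists were higher for better ranked regions. The TAZ4SA-only regions were divided into 4 equal groups by the rank in their weaker list. Both YAP5SA-named lists had a peak in 91.5% of the best ranked group, then in 73.0%, 58.0% and 50.6%. Both CAMTA1-named lists had a peak in 39.2% of the best ranked group and 14.5% of the last. The share in both EV-named lists was 22.6% in the best ranked group and 25.3% in the last. For TC-only regions, both EV-named lists had a peak in 82.8% of the best ranked group, falling to 63.6% in the last, both TFE3-named lists in 76.4% falling to 33.1% and both YAP5SA-named lists in 29.2% falling to 13.1%. The change with rank was thus not peculiar to the YAP5SA-named lists.

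The shares depended on how many peaks of the other lists were read. With all their peaks, TAZ4SA-only regions had a peak in 97.7% and 91.1% of cases in the YAP5SA-named lists and in 81.3% and 83.1% in the EV-named lists. The CAMTA1-named lists then had 62.7% and 80.1% and the TFE3-named lists 26.1% and 30.6%. TC-only regions had a peak in 80.9% and 64.4% of cases in the YAP5SA-named lists and in 99.4% and 97.9% in the EV-named lists. The distance between the YAP5SA-named and EV-named lists was thus much smaller with all peaks than with the best 21748, in both classes. Of all merged regions, 86.6% and 76.7% then had a peak in the YAP5SA-named lists, 92.8% and 92.2% in the EV-named lists, 76.7% and 82.9% in the CAMTA1-named lists and 68.0% and 65.6% in the TFE3-named lists. TAZ4SA-only regions were thus near that background in CAMTA1-named replicate 2.

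The shares were also recomputed for stricter classes. In the 920 TAZ4SA-only regions with no TC-named peak of any strength, the YAP5SA-named lists had 82.0% and 71.3%, and the EV-named lists 12.8% and 15.5%. In the 442 TC-only regions with no TAZ4SA-named peak, the EV-named lists had 76.9% and 64.5% and the YAP5SA-named lists 16.5% and 14.7%. Peak width was a concern for the EV-named lists, whose best peaks covered 108 and 88.2 Mb, against 24.1 to 56.8 Mb in the 4 lists compared. With windows of 500 bp to each side of every summit the TC-only share fell to 59.1% and 58.2% in the EV-named lists, below the 66.3% and 60.6% in the TFE3-named lists. All merged regions were lower too in this setting, at 52.1% and 53.1% in the EV-named lists, so TC-only regions lay above them. The TAZ4SA-only share was 73.8% and 70.3% in the YAP5SA-named lists, against 54.0% and 54.6% of merged regions. The high position of the YAP5SA-named lists for TAZ4SA-only regions was therefore seen with windows as well, and the first place of the EV-named lists for TC-only regions was not. Leaving out each of the 4 lists in turn, the YAP5SA-named lists had 48.2% to 84.1% of TAZ4SA-only regions, the lowest without TAZ4SA-named replicate 2. They were the 2 highest of the 10 in each of these 4 cases, but their position against all merged regions of the same lists turned. Without TAZ4SA-named replicate 1 the TAZ4SA-only share was 60.8% and 50.1% in the YAP5SA-named lists against 67.9% and 63.8% of merged regions, and without replicate 2 it was 62.1% and 48.2% against 68.4% and 63.3%. The TC-only share in the EV-named lists also fell below all merged regions when a TC-named list was left out. It was 75.4% and 65.4% against 75.7% and 73.5% without replicate 1, and 73.0% and 62.4% against 74.9% and 72.6% without replicate 2. The levels themselves moved. Without TC-named replicate 1, the TAZ4SA-only share rose to 49.8% and 52.1% in the EV-named lists, to 48.6% and 57.8% in the CAMTA1-named lists and to 31.8% and 37.5% in the TFE3-named lists. Without TAZ4SA-named replicate 2 it was 12.8% in TFE3-named replicate 2. In YT-named replicate 2 it was 41.4% without TC-named replicate 1, and the TC-only share there was 43.3% without TC-named replicate 2. The TC-only share in the YAP5SA-named lists was 56.2% and 56.1% without TAZ4SA-named replicate 2, 24.5% and 18.7% without TC-named replicate 1, and 24.5% and 19.9% without TC-named replicate 2. Without TC-named replicates 1 and 2 in turn, the TC-only share was 36.5% and 37.2% in CAMTA1-named replicate 1 and 38.6% and 40.4% in TFE3-named replicate 2. The YAP5SA-named lists had the lowest TC-only shares of the 9 longer lists in all 4 cases.

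The classes also differed in where they lay. TAZ4SA-only regions were wider, with a median of 2336 bp against 1551 bp for TC-only and 3157 bp for regions in all 4 lists. They lay further from the regions that all 4 lists shared, at a median of 61.5 kb against 32.8 kb for TC-only regions. The distance from one all-4 region to the next was 30.6 kb, and merged regions outside the all-4 class lay at a median of 36.7 kb. More than 100 kb separated 38.3% of TAZ4SA-only and 25.4% of TC-only regions from the nearest all-4 region. With absence judged in all peaks the medians were 93.6 and 44.9 kb, with the 10000 best peaks 107 and 77.2 kb, and with summit windows 60.4 and 32.9 kb. The gap narrowed when a list was left out, to 41.5 to 46.3 kb for TAZ4SA-only and 21.9 to 30.2 kb for TC-only regions, and it was smallest without TAZ4SA-named replicate 2, at 41.5 and 30.2 kb. TAZ4SA-only regions lay the further away in each of these settings.

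By chromosome, TAZ4SA-only regions were the more numerous on 20 of 23 chromosomes, and the exceptions were 16, 17 and 19. This tally followed the totals of the classes. With all peaks TAZ4SA-only regions were the more numerous on 5 of the 23 and with 50% cover on 6. Chromosome 16 had 73 TC-only and 59 TAZ4SA-only regions, chromosome 17 had 76 and 68, and chromosome 19 had 58 and 38. Chromosomes 16, 17 and 19 are gene-dense. At the other end were chromosomes 21, with 14 TC-only and 35 TAZ4SA-only regions, and 13, with 20 and 47. On chromosome 19, 4.51% of merged regions were TC-only and 2.95% TAZ4SA-only, and on chromosome 21 the shares were 4.14% and 10.4%. Together chromosomes 16, 17 and 19, singled out from these counts, held 14.4% of TC-only and 8.56% of TAZ4SA-only regions. They held 13.6% of all merged regions and 14.9% of regions in all 4 lists, so the TC-only share was near the background and the TAZ4SA-only share was below it. With absence judged in all peaks the TC-only and TAZ4SA-only values were 10.6% and 8.37%, both below the 13.6% of merged regions. The values were 16.1% and 9.27% with the 10000 best peaks, where merged regions had 14.7%. With summit windows they were 14.0% and 8.68%, where merged regions had 13.3%. They were 12.7% and 7.66% with all peaks and 13.8% and 7.68% with 50% cover, where merged regions had 12.8% and 13.6%. Without any one of the 4 lists the share was 13.8% to 16.6% for TC-only and 8.12% to 10.6% for TAZ4SA-only regions. SW872 is a tumour line, and whether its copy number plays a part was not tested.

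**Figure D4:**
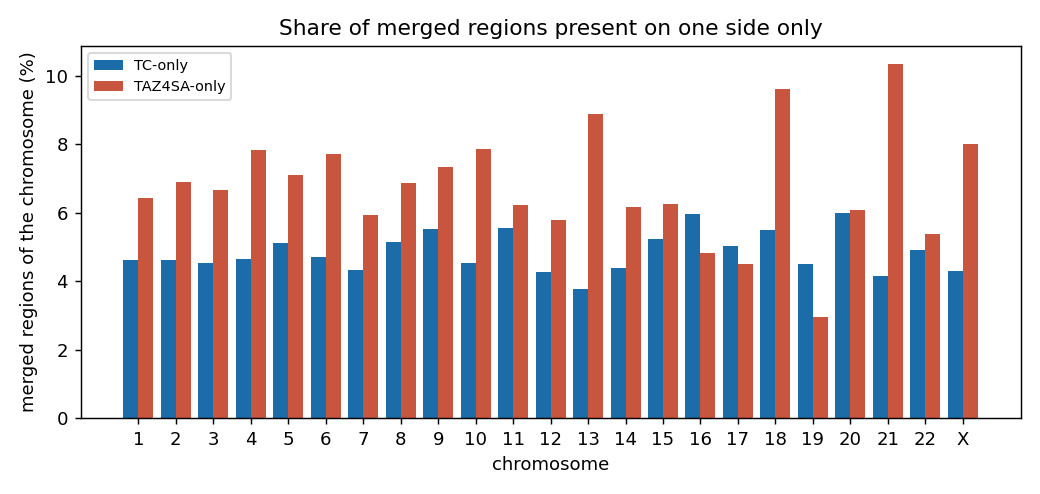
Bars give the percent of all merged regions on each chromosome (x axis) that were TC-only (blue) or TAZ4SA-only (red). The blue bar is the taller on chromosomes 16, 17 and 19, and the red bar is tallest on chromosome 21 at 10.4%.

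One-sided regions lay near their own class less often than all-4 regions did, with 28.5% of TC-only, 31.1% of TAZ4SA-only and 62.3% of all-4 regions within 50 kb of another member. The classes differ in number, which bears on these shares. The 1 Mb bins with the most regions were picked out after their counts were seen and are described without a test. Bin chr3:177000001-178000000 held 12 TC-only and 0 TAZ4SA-only regions, spread over 309 kb, beside 3 regions in all 4 lists and among 31 merged regions. Of the 12, both EV-named lists had a peak in 11 and both YAP5SA-named lists in 1. The bin chr5:55000001-56000000 held 11 TC-only among 51 merged regions, 10 of them in both EV-named lists and 1 in both YAP5SA-named lists, and it also held 4 TAZ4SA-only regions. In chr16:65000001-66000000, both EV-named lists had a peak in all 9 TC-only regions and both YAP5SA-named lists in 4. Among all TC-only regions, 73.7% were in both EV-named and 17.7% in both YAP5SA-named lists. The next bins, with 7 TC-only regions each, had 4 (chr7:47000001-48000000) and 5 (chr7:134000001-135000000) in both EV-named lists.

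TAZ4SA-only regions were most crowded in chr17:39000001-40000000 and chr19:43000001-44000000, with 12 each beside 1 TC-only region, among 29 and 69 merged regions. Both bins lie on chromosomes where TC-only regions were the more numerous as a whole. On chromosome 17, 8 of the 12 were in both YAP5SA-named lists, 11 in neither EV-named list and 12 in neither TFE3-named list, and 10 had no peak of any strength in a TC-named list. On chromosome 19, 8 of the 12 were in both YAP5SA-named lists and 9 in neither EV-named list. The bin chr1:209000001-210000000 held 10, 7 of them in both YAP5SA-named lists. Among all TAZ4SA-only regions, 68.3% were in both YAP5SA-named lists, 59.6% in neither EV-named and 74.6% in neither TFE3-named list, so the YAP5SA-named counts of these 3 bins were near the rate of the class. The bin chr20:9000001-10000000, which takes in the named region chr20:8996649-9004256, also held 10. Of these, 9 were without a TC-named peak of any strength, but only 4 were in both YAP5SA-named lists. Neither of the last 2 bins had a TC-only region.

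Regions in all 4 lists allowed a test with replicates. Ranks within each list were turned into normal scores, where 0 is the middle of the 10659 regions, higher is a better rank and a unit is 1 SD. The scores of the TC-named pair correlated across regions with a Pearson r of 0.805 and those of the TAZ4SA-named pair with 0.646, while pairs from different sides ranged from 0.573 to 0.669. Regions are not independent replicates. TC-named replicate 1 was thus about as close to TAZ4SA-named replicate 2 (0.669) as the TAZ4SA-named lists were to each other.

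No shared region passed the test between sides. limma called 0 regions higher in the TC-named lists (0% of 10659) and 0 higher in the TAZ4SA-named lists (0%) at a Benjamini-Hochberg adjusted p of 0.05, and the lowest adjusted p was 0.0813. At an unadjusted p under 0.05, limma had 501 higher in the TC-named (4.70%) and 780 higher in the TAZ4SA-named lists (7.32%). A p that misses the threshold does not show that the sides were alike. Other settings made calls. Log2 fold in place of rank gave 4 and 33, the summed score of a region 1 and 15, and a block for the replicate number 16 and 115. Without TAZ4SA-named replicate 2, 307 were called higher in the TC-named and 421 higher in the TAZ4SA-named list, and without TC-named replicate 1 the counts were 0 and 1. With the constructs of the titles, 181 were called higher in the lists titled TAZ_CAMTA1 (TAZ4SA-named) and 23 in those titled TAZ4SA (EV-named).

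Ranks of the sides did not overlap in 2413 regions that ranked better in both TC-named lists (22.6%) and in 2170 that ranked better in both TAZ4SA-named lists (20.4%), while 6076 overlapped. Each share is read as a description of 2 lists against 2. The median distance between the mean ranks of the sides was 1246, and the median distance between the lists of one side was 1093 for TC-named and 1575 for TAZ4SA-named. A mean of 2 lists varies less than a single list, so these distances are not on the same footing and are not compared.

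The regions with the widest gap between the sides were chosen after their values were seen. At chr5:148287654-148296398 the TC-named ranks were 12713 and 14799 and the TAZ4SA-named ranks 555 and 521. The folds were 6.39 and 5.14 on the TC-named side and 15.4 and 27.8 on the TAZ4SA-named side. The difference in score, TC-named minus TAZ4SA-named, was -2.86 ± 0.42 (SE) with a limma adjusted p of 0.0813. YAP5SA-named replicates 1 and 2 ranked this region 491 and 1190, close to the TAZ4SA-named lists, and the EV-named lists ranked it 14232 and 15007, close to the TC-named ones.

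A pair of neighbouring regions on chromosome 5 also ranked better in the TAZ4SA-named lists. At chr5:52698959-52704795 the ranks were 20887 and 20752 in the TC-named and 3260 and 3294 in the TAZ4SA-named lists. At chr5:52713418-52717132 they were 20281 and 19153 against 369 and 3679. The YAP5SA-named lists ranked the first at 1281 and 2447 and the second at 2438 and 1079. The EV-named lists ranked the first at 20584 and 11652, the latter between the sides, and the second at 17270 and 17236.

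Better in the TC-named lists was chr1:226002665-226006551, with ranks of 1918 and 4403 against 19978 and 19377 and folds of 16.9 and 9.35 against 3.42 and 5.90. It ranked 13664 and 9246 in the YAP5SA-named lists and 9289 and 5961 in the EV-named lists, between the sides. The score difference was 2.63 ± 0.44 (SE), with a limma adjusted p of 0.0817. At chr12:51416476-51418685 the ranks were 2674 and 2848 against 14986 and 17433, with 13794 and 11962 in the YAP5SA-named and 8420 and 8636 in the EV-named lists. The region chr22:36364524-36372194 ranked 4195 and 5027 against 21274 and 18279, with 20802 and 16511 in the YAP5SA-named and 3745 and 4398 in the EV-named lists. The widest gap in this direction was on a contig outside the assembled chromosomes, with ranks of 3465 and 3936 against 21221 in both TAZ4SA-named lists. YAP5SA-named replicate 1 ranked it 5159, close to the TC-named lists, and replicate 2 ranked it 15169. The YAP5SA-named lists were therefore not on the TAZ4SA-named side in each of these regions.

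The regions at an unadjusted p under 0.05 were followed into the other 10 lists, which the fit had not used. The 780 that scored higher in the TAZ4SA-named lists had median scores of 0.39 and 0.24 in YAP5SA-named replicates 1 and 2, against -0.53 and -0.49 for the 501 that scored higher in the TC-named lists. In the other 8 lists the order was the opposite. In EV-named replicate 1 the 780 had a median of -0.92 and the 501 a median of -0.05, and in TFE3-named replicate 1 the medians were -0.88 and 0.01. Over all shared regions with a peak in the list, and with no choice by p, the association was weak. Pearson's r across regions between the score difference, TAZ4SA-named minus TC-named, and the score in the other list was 0.16 and 0.10 in the YAP5SA-named lists and -0.28 to -0.06 in the other 8. Regions are not independent, and the correlation is a description. The gap between the medians was smallest in CAMTA1-named replicate 2, at -0.38 and -0.34. Medians are over the regions with a peak in the list, which were 645 to 769 of the 780 and 468 to 500 of the 501 in the 9 longer lists. The YAP5SA-named lists, which held the largest shares of TAZ4SA-only regions among the 10, were thus also the lists that placed these shared regions higher.

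**Figure D5:**
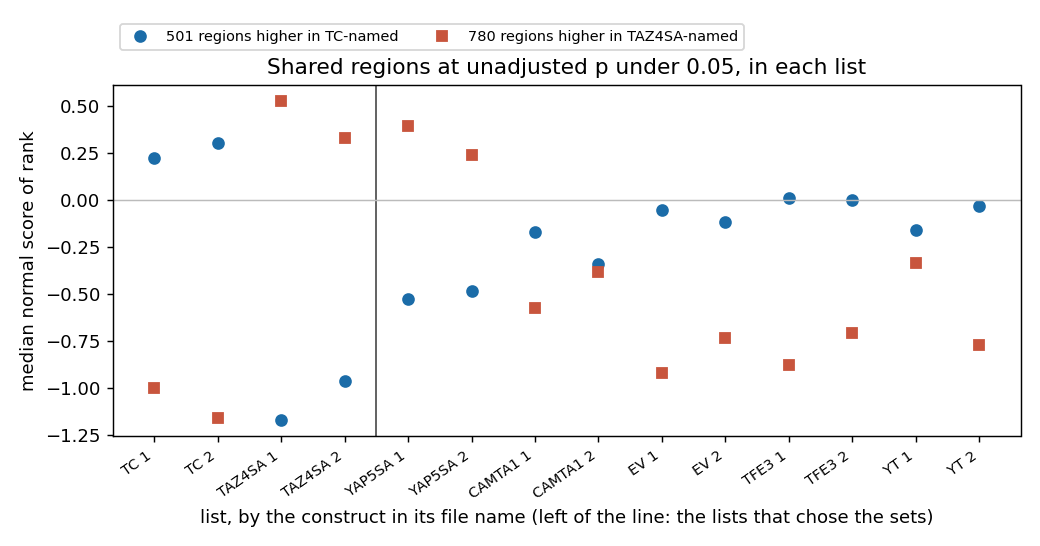
Points give the median normal score of rank (y axis, SD units, higher is a better rank) in each list for the 501 shared regions higher in the TC-named lists (blue circles) and the 780 higher in the TAZ4SA-named lists (red squares). The 4 lists left of the line chose the sets. To the right, red lies above blue in the 2 YAP5SA-named lists and below it in the other 8.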

How the data were processed

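H3K27ac ChIP-seq peak lists of 14 SW872 libraries were read, and the 14 input libraries were not analysed here. Per the methods and labels, the authors trimmed reads with Atropos 1.1.16, aligned them with BWA to GRCh37, dropped greylist regions and reads that mapped more than once, and used MACS2 to call peaks. The deposited columns are a fold enrichment (the ratio to background at the summit), the −log10 p-value, the −log10 q-value and the summit's offset in bp. The methods give a q limit of 0.1 and pooled replicates. The deposited lists are separate for each library and end at a −log10 q of at least 1.30. A protocol label names a Flag antibody, whereas the antibody label is H3K27ac.

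Peaks were ranked by −log10 p, ties by fold and then file order, and the best 21748 of each list were kept, all where fewer. The last rank fell among tied p-values in the 3 longer lists. Overlap was at least 1 bp. Shared regions were scored by their best rank and fitted with limma 3.58.1 in R 4.3.3 (eBayes, two-sided). Summit counts and background were solved from fold and p, and the counts were whole numbers, within 0.02, in 99.98% or more of each list's peaks. Background coverage was its 1st percentile. Scripts ran under Python 3.11.15 with pandas 2.3.3, scipy 1.17.1, matplotlib 3.10.9 and numpy 2.4.6. The scripts were tested on simulated data.

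Regions named were the 10 of each class with the best rank in their weaker list. The rule for shared regions (called by limma) named none. Alternatives were other peak numbers, ranking by fold, coverage, stitching, summit windows, chromosomes 1 to 22 and X, lists left out, the replicate block and the titles' constructs. Gene lists, marker checks, promoter shares and motif shares were planned only for a GRCh37 annotation and genome and were not run. Regions, rules and lists were chosen with earlier results of these data known.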

Additional observations from a re-analysis of the deposited data

How the results depend on the processing

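The one-sided counts (TC-only and TAZ4SA-only) were 831 and 1025 with the 10000 best peaks, and 442 and 920 with absence judged in all peaks. With 50% cover the TAZ4SA-only count was 1028. By the constructs of the titles the count was 3278 for the lists titled TAZ4SA, which are EV-named. Settings chosen after seeing the data gave 849 and 994 (stitched, 10000 best) and 877 and 1056 (summit windows, 10000 best). Leaving out 1 list gave 1852 to 4268 and 2187 to 5148, the rule then asking for presence in, or absence from, 1 list in place of 2 on the side concerned. Ranking by fold, stitching, summit windows and chromosomes 1 to 22 and X moved neither count by over 1.5 times.

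Shared regions called by limma, higher in TC-named and in TAZ4SA-named lists, were 0 and 0 with full lists, the 10000 best peaks and chromosomes 1 to 22 and X. They were 4 and 33 by log2 fold and 1 and 15 by summed score. Leaving out 1 list gave 0 to 307 and 0 to 421, the lone list being assumed to vary like the pair. The replicate block gave 16 and 115. Lists with the same number deviated together with a correlation of 0.0022, and the number marks no shared batch in the labels, so the block was not read as a pairing. The file names number the TC-named lists 1 and 2 but the TAZ4SA-named lists 2 and 3. By the titles' constructs, 181 regions were higher in the lists titled TAZ_CAMTA1 and 23 in those titled TAZ4SA, a comparison without TC-named lists. The cause of these differences was not tested.

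The mean share over the 10 other lists was 54.8% for TC-only and 34.4% for TAZ4SA-only regions. With all peaks of those lists the TAZ4SA-only share was 60.9%, and with their 5000 best peaks the shares were 3.13% and 2.46%. Without TFE3 replicate 1 by title (YT-named), the list of 5721 peaks, they were 60.2% and 38.2%, a setting added after seeing the data, as were the summit windows for the shares, the recomputed positions, and the shares by list with 10000 peaks or without a list. Promoter and motif shares were not run. Read depth was not matched between the lists, and a list with fewer peaks cannot show weak sites.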
